A study of Mus musculus with 19 samples.

Results

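H3K27me3, the trimethylated form of a lysine in the tail of histone H3, was compared at day 8 between *Dnmt1* cKO and control mouse embryonic stem cells (ESCs). Of the 19 libraries of the series, 4 hold this comparison, 2 of control and 2 of cKO cells, and they were taken by mark, day and genotype from the labels. The comparison asks whether a repressive histone mark is redistributed once DNA methylation has been lost. Polycomb repressive complex 2 writes H3K27me3, with EZH2 as its catalytic subunit and EED and SUZ12 as core partners. In ESCs the mark is known to lie over CpG-rich promoters of silent developmental regulators, many of them transcription factors that would otherwise drive differentiation. DNMT1 copies CpG methylation onto the new strand after DNA replication, so cells without it lose methylation as they divide.

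The labels give the background strain E14 and call the control genotype Wildtype and the other DNMT1KO. The methods instead describe a line with loxP sites in both *Dnmt1* alleles, in which tamoxifen (4OHT) induces Cre recombinase, grown in serum with LIF and with or without feeder cells. Whether control cells carry the same loxP alleles is not stated, and the number of independent clones is not given. The series design speaks of biological replicates and the methods of a single measurement, so p-values here cover the spread between libraries, which may be technical. The labels give the antibody catalogue numbers 39155 for control 1, 39156 for cKO 1, 39157 for control 2 and 39158 for cKO 2, whereas the methods name a single number. Whether these differences are real was not tested, and antibody and library cannot be told apart. A single H3K27me3 library of each genotype at day 4, both labelled 39155, and 1 input library of control cells served for reference.

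Between 20173468 and 26181275 reads lay in 2 kb tiles in the 4 libraries, and 19009826 in the input. All values are relative to the total of their library. A change of the mark over the whole genome at once would therefore not be seen. In the body of *Dnmt1* (ENSMUSG00000004099, chromosome 9, 20711650 to 20757317, minus strand), the tile from 20744001 to 20746000 held 7 reads in each control and 0 in each cKO library. The deleted exons are not named in the sources used here, and this tile was picked after its values were seen. In the H3K9me2 and H3K9me3 libraries of day 8, the same tile held 7 to 11 reads in the 4 controls and 0, 0, 0 and 1 in the cKO. The H3K9me3 library of cKO 1 was shallow, with 5668983 reads in tiles. The promoter of *Dnmt1* had 22 and 18 reads in the controls against 7 and 15 in the cKO, against 40 in the input (log2 difference -1.02 ± 0.43, limma adjusted p = 0.101). Promoters of the pluripotency factors *Pou5f1* (9 and 8 reads in the controls against 10 and 11 in the cKO) and *Nanog* (13 and 21 reads in the controls against 14 and 20 in the cKO) lay below their input levels in the day 4 control (log2 -1.81 and -0.76), while promoters of the 40 *Hox* genes had a median of 4.47 over input. Low levels at the former and high levels at the latter are known for this mark in ESCs.

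The share of H3K27me3 reads was lower in the cKO where the mark had been strongest. Windows of 10 kb were put into classes by their level in the day 4 control library, which belongs to neither day 8 group. In the 1017 windows with over 8-fold more reads than input at day 4, the summed level at day 8 was log2 4.09 and 3.69 over input in the controls and 3.39 and 2.76 in the cKO. The groups did not overlap, but the 2 control libraries were 0.39 apart and the nearest control and cKO libraries 0.30. The mean difference was -0.81 (SD 0.28 in controls and 0.45 in cKO, n = 2 each, two-sided exact permutation p = 0.333, the smallest that 2 libraries against 2 can give). Taken singly, 50 of the 1017 windows were called lower with limma (4.92%, against 0.925% of all windows) and 0 higher.

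Windows with 4 to 8-fold enrichment had a median log2 change of -0.47 in pair 1 and -0.57 in pair 2, where a pair is the control and cKO library of the same replicate number. The 69003 windows near the input level (1 to 2-fold) had 0.12 in pair 1 and 0.09 in pair 2, so their share of reads was slightly higher in the cKO. Windows under 0.5-fold had -0.10 in pair 1 and -0.19 in pair 2. At day 4 the same classes had medians between -0.19 (over 8-fold) and 0.01. The day 4 ratios share their control library with the classes.

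**Figure D1:**
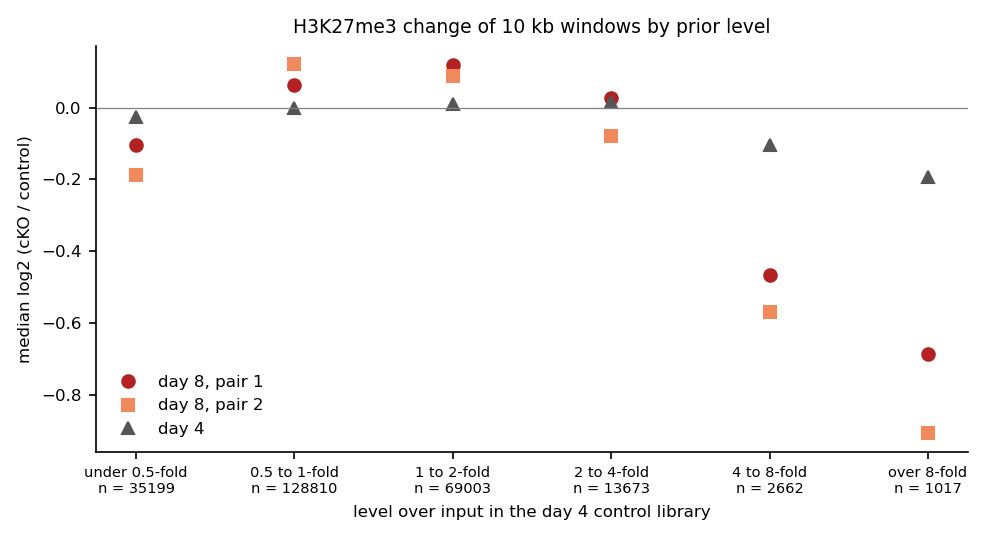
Median log2 ratio of cKO to control H3K27me3 reads (y axis) of 10 kb windows in classes of their level over input in the day 4 control library (x axis), with circles for day 8 pair 1, squares for pair 2 and triangles for day 4. Both day 8 pairs lie near 0 up to 4-fold enrichment and fall to -0.69 and -0.91 over 8-fold.

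The 17353 windows at least 2-fold over input at day 4 took 25.6% and 21.4% of the reads in the controls and 21.1% and 16.5% in the cKO, against 6.11% of input reads. Control 2 and cKO 1 were thus almost level on this measure, while the replicates of each group were over 4 points apart. CpG-rich promoters took 5.88% and 4.35% of the reads in the controls and 3.35% and 2.15% in the cKO, against 1.6% in the input, and on that measure the nearest control and cKO libraries were 1.00 percentage points apart and the replicates 1.53 (control) and 1.19 (cKO). The exact permutation p was 0.333 for both. The mean GC content of the windows, weighted by reads, was 43.6% and 43.2% in the controls and 43.4% and 42.7% in the cKO. In the over 8-fold windows the median change was -0.75, -0.78 and -0.82 in classes of 42 to 46%, 46 to 50% and at least 50% GC, and in the 1 to 2-fold windows of at least 50% GC it was 0.13. Counts after a GC correction stand beside the results below.

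Of 250916 windows of 10 kb tested with limma, 2321 were lower in the cKO (0.925%) and 1130 were higher (0.45%) at an adjusted p under 0.05. Centring each library on its median turned this split into 1495 lower and 171 higher, and correcting each library for GC content into 3808 and 1148. Without control 1 the fit called 336 windows, without control 2 1394, without cKO 1 7148 and without cKO 2 2085. In these fits the remaining library of the group was assumed to vary like the other group.

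The lower and higher windows differed in where they lay. A CpG-rich gene start was present in 49.9% of lower windows and 0.265% of higher windows, against 3.53% of all windows tested. Genes overlapped 86.9% of lower and 57.3% of higher windows (46% of all). Over 100 kb from any gene start lay 4.57% of lower, 30.1% of higher and 40.3% of all windows. Changed windows stood mostly alone, since the lower windows formed 2082 runs of adjacent windows and the higher ones 1078, none longer than 40 kb. Chromosome 11 had the highest share of lower windows (1.56%, against 0.925% of all) and chromosome 10 the highest share of higher windows (0.768%, against 0.45% of all). On the X chromosome 132 of 14529 windows were lower (0.909%, near the share of all windows) and 19 were higher (0.131%).

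Taken by size alone, 831 windows (0.331%) were at least 2-fold lower in both pairs and 107 (0.0426%) at least 2-fold higher. Single pairs gave more, with 2606 lower and 1491 higher in pair 1 and 5107 lower and 1275 higher in pair 2. Of the windows changed in both pairs, limma called 660 of the lower and 78 of the higher. The groups did not overlap in 828 of the 831 lower windows and in all 107 higher ones. A choice by size in both pairs thus nearly ensures that the groups do not overlap. The 2-fold lower windows held a median of 199 CpG sites against 73 over all windows. High-copy sequence, meaning a share of at least 0.2 of sampled 31-mers found 50 or more times in the genome, was present in 52.3% of the 2-fold higher windows and 2.53% of the 2-fold lower ones (10.7% of all). The 2-fold higher windows were also shallow, with a median of 35 input reads against 76 over all windows. The part of depth and copy number in these rises was not tested.

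The windows with the largest falls mostly overlapped genes, and all but that of *Nid1* held over 100 reads in each control. The largest was an intergenic window at chr6:90930001-90940000, 23062 bases from *Nup210*, which encodes a nuclear pore protein. It had 156 and 151 reads in the controls against 35 and 32 in the cKO (log2 difference -2.28 ± 0.23, limma adjusted p = 5.96e-09), and every cKO library lay below both controls. Next came chr3:145310001-145320000, which holds the starts and exons of *Cyr61*, a secreted matrix-associated protein, and of the lincRNA gene *Gm17501*, with 272 and 202 reads in the controls against 54 and 52 in the cKO (log2 difference -2.23 ± 0.21, limma adjusted p = 2.47e-10). On the X chromosome chrX:45800001-45810000 overlapped exons of *Elf4*, an ETS transcription factor, with 424 and 422 reads in the controls against 105 and 95 in the cKO (log2 difference -2.17 ± 0.20, limma adjusted p = 2.47e-10).

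Exons of *Ppp2r2c*, a regulatory subunit of a protein phosphatase, lay in chr5:37260001-37270000, which had 607 and 437 reads in the controls against 171 and 104 in the cKO (log2 difference -2.04 ± 0.24, limma adjusted p = 1.31e-07). The window at chr3:9250001-9260000 holds the start of *Zbtb10*, a zinc finger gene, and had 366 and 384 reads in the controls against 98 and 97 in the cKO (log2 difference -2.03 ± 0.20, limma adjusted p = 8.17e-10). At chr1:16090001-16100000 lie the starts of *Rpl7* and of *Rdh10*, an enzyme of retinoic acid synthesis, with 261 and 183 reads in the controls against 71 and 47 in the cKO (log2 difference -2.01 ± 0.22, limma adjusted p = 5.47e-08). In each of these windows both cKO libraries lay far below both controls, which the choice by 2-fold falls in both pairs nearly ensures. The other named falls held the start of *Fhl1* (chrX:53980001-53990000, log2 difference -1.99) and an exon of *Nid1* (chr13:13530001-13540000, -1.96). At *Nid1* both controls already lay below the input, at log2 -0.62 and -0.41.

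The windows with the largest rises held few reads. The first, chr16:3360001-3370000, lay 222398 bases from the nearest gene, had 8 and 0 reads in the controls against 20 and 30 in the cKO, 10 in the input, and a high-copy share of 0.59 (log2 difference 3.51 ± 0.58, limma adjusted p = 0.000152). The second, chrX:34840001-34850000 on the X chromosome, holds the start of *Rhox4b*, a homeobox gene of a cluster of near-identical copies, and had 1 and 6 reads in the controls against 23 and 24 in the cKO (log2 difference 2.85 ± 0.46, limma adjusted p = 8.43e-05). Values at such copies are uncertain, because ambiguously placed reads had been discarded. The other 6 were intergenic, had log2 differences between 1.77 and 2.50 and held at most 13 reads in a control and 64 in a cKO library. Values against so few control reads carry a large counting error. The groups did not overlap in any of the 8, which the choice nearly ensures. Without control 1, 7 of the 16 named windows no longer passed, all of them rises, without control 2 it was 2 rises, without cKO 2 it was 5 rises and the *Nid1* window, and without cKO 1 it was 0.

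A larger share of promoters than of windows was called. Of 22864 promoters tested, out of 23640 annotated, 2773 were lower in the cKO (12.1%) and 136 were higher (0.595%), and at least 2-fold changes in both pairs were found at 2148 (9.39%) and 55 (0.241%). A promoter was the 2 kb tiles within 1 kb of an annotated start. The median over all promoters was -0.39, against 0.06 over all windows. Centring on the promoter medians gave 1654 lower and 495 higher, and GC correction 1868 and 294. The fit called 178 promoters without control 1, 866 without control 2, 4040 without cKO 1 and 669 without cKO 2.

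CpG-rich starts accounted for 2268 of the 2773 lower promoters and for 1 of the 136 higher ones. CpG-rich means an observed over expected CpG ratio of at least 0.6 and at least 0.5 GC in the 1 kb around the start, and CpG-poor a ratio under 0.3. The 10295 CpG-rich promoters had a median level of log2 0.01 and -0.23 in the controls and -0.55 and -0.97 in the cKO. Their median change was -0.68 in pair 1 and -0.86 in pair 2, and 66.4% had both cKO libraries below both controls, against 45.2% of all promoters. The 7089 CpG-poor promoters had 0.04 in pair 1 and 0.03 in pair 2, with 94 lower and 48 higher. In the intermediate class 411 of 5480 were lower and 87 higher. After GC correction, which removes part of any contrast that follows base composition, the median change of CpG-rich promoters was -0.50 with 1386 lower and 10 higher. That of CpG-poor promoters was -0.04 with 157 lower and 144 higher.

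The difference between these classes was seen at equal levels of the mark. Among promoters 2 to 4-fold over input at day 4, the 1122 CpG-rich ones had a median change of -0.82 in pair 1 and -0.93 in pair 2. The 1092 CpG-poor ones of the same level had 0.12 in pair 1 and 0.03 in pair 2. Over 8-fold, where 70 CpG-poor promoters lay, the medians were -0.86 in pair 1 and -1.12 in pair 2 for CpG-rich and -0.65 in pair 1 and -0.79 in pair 2 for CpG-poor promoters. The 3021 CpG-rich promoters with less than 0.5-fold of the input level also had -0.44 in pair 1 and -0.66 in pair 2. Of these, 158 were called lower (5.23%), as were 389 of 2366 CpG-rich ones at 0.5 to 1-fold (16.4%), against 22% of all CpG-rich promoters. Lower shares of reads at CpG-rich starts were therefore present where the mark itself was scarce.

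**Figure D2:**
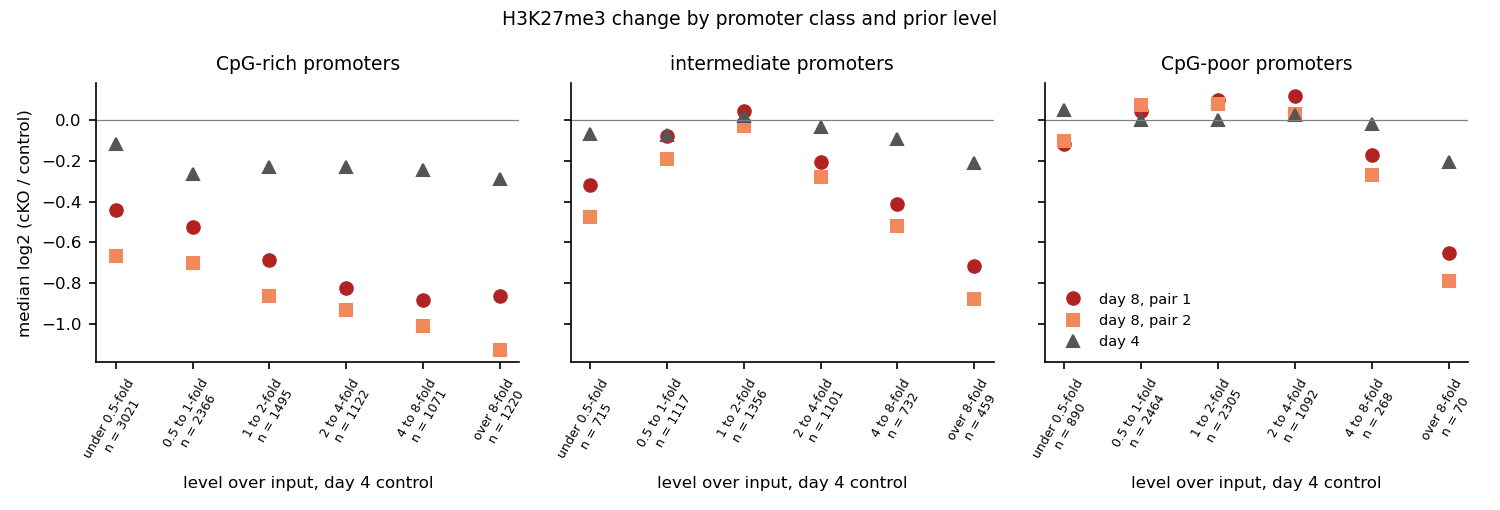
Median log2 ratio of cKO to control H3K27me3 reads (y axis) of promoters by their level over input in the day 4 control (x axis), in 1 panel each for CpG-rich, intermediate and CpG-poor starts, with circles and squares for the day 8 pairs and triangles for day 4. CpG-rich promoters lie below 0 at every level, and CpG-poor ones near 0 up to 4-fold.

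Around the starts of the 2291 CpG-rich promoters at least 4-fold over input at day 4, the mark peaked in the tile of the start, at log2 3.92 and 3.38 over input in the controls and 2.98 and 2.20 in the cKO. At 10 kb upstream the values were 1.33, 1.19, 1.17 and 0.94 in the same order. The libraries thus differed most at the start and least in the flanks. At the 5387 CpG-rich promoters below the input level levels in the tile of the start were -0.94 and -1.20 in the controls and -1.48 and -1.94 in the cKO. At 1430 CpG-poor promoters over 2-fold the values at the start were 1.97 and 1.77 in the controls and 1.89 and 1.59 in the cKO, and there the groups overlapped.

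**Figure D3:**
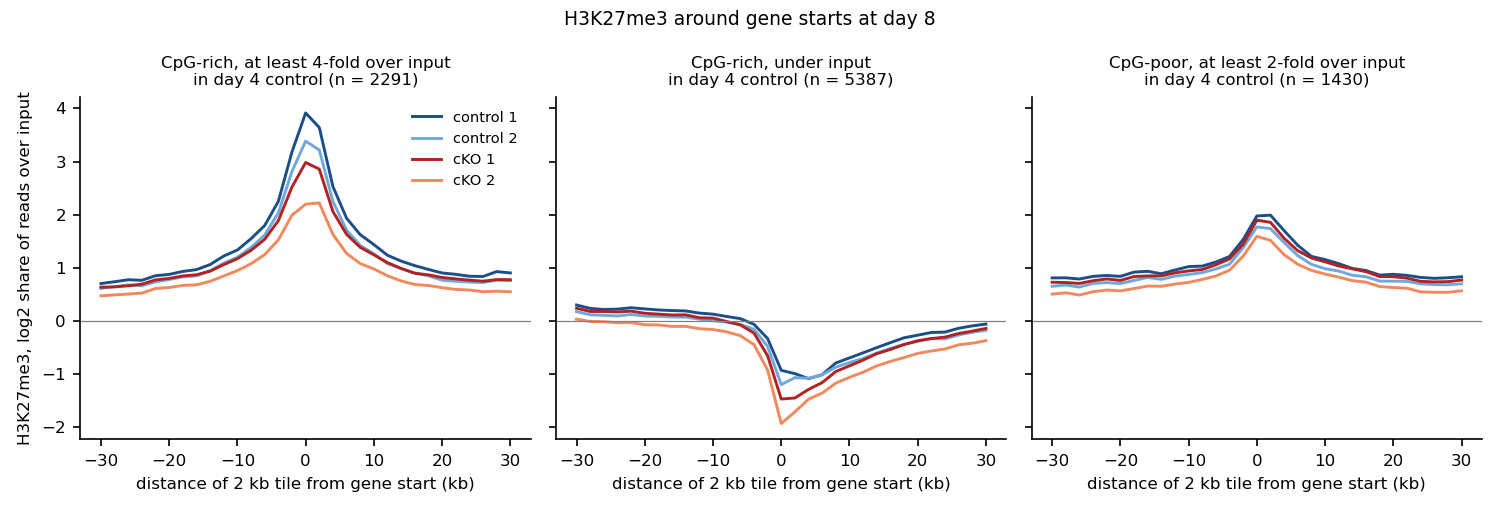
Summed H3K27me3 reads over input (log2 share of reads, y axis) in 2 kb tiles by distance from the gene start (x axis, kb, upstream negative), with 1 line per day 8 library and 1 panel per promoter set. In the tile of CpG-rich starts both cKO lines run below both control lines, from a peak of 3.92 in control 1 to 2.20 in cKO 2.

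Gene bodies gave no call in the main fit, and 7216 with replicate number as a block. Of 22434 genes tested 0 passed in limma with or without a trend or with limma-voom (0% in each direction), and 5280 had an unadjusted p under 0.05, 4196 of them lower. At least 2-fold changes in both pairs were found at 428 lower (1.91%) and 38 higher bodies (0.169%), and a centred fit called 145. The fit called 215 bodies without control 1, 1244 without control 2, 2900 without cKO 1 and 110 without cKO 2. Among single 2 kb tiles 3134 of 1150058 were lower (0.273%) and 1319 were higher (0.115%), while 14278 (1.24%) and 9657 (0.84%) changed at least 2-fold in both pairs. Without the trend in the variance 0 tiles passed, with 96221 at an unadjusted p under 0.05. Without control 1 the tiles split into 674 lower and 878 higher, without control 2 into 2514 and 3127, without cKO 1 into 6953 and 648 and without cKO 2 into 1821 and 797.

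Among the 10 promoters with the largest falls all had a CpG-rich start, and no role of their genes entered the choice. The promoter of *Bcr*, a GTPase regulator (chromosome 10, start at 74523641), had 145 and 135 reads in the controls against 36 and 14 in the cKO (log2 difference -2.70 ± 0.33, limma adjusted p = 5.43e-12). *Camk2n2*, an inhibitor of the kinase CaMKII (chromosome 16, 20621360), had 269 and 246 reads in the controls against 48 and 37 in the cKO (log2 difference -2.69 ± 0.36, limma adjusted p = 2.53e-10). *Whsc1*, a histone H3 lysine methyltransferase also called NSD2 (chromosome 5, 34163374), had 172 and 221 reads in the controls against 46 and 26 in the cKO (log2 difference -2.57 ± 0.35, limma adjusted p = 3.04e-10). At all 3, both controls lay well above the input and cKO 2 lay below it.

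*Eea1*, a protein of early endosomes (chromosome 10, 95403297), had 107 and 121 reads in the controls against 22 and 18 in the cKO (log2 difference -2.58 ± 0.33, limma adjusted p = 4.84e-11). *Gm17501*, the lincRNA gene beside *Cyr61* (chromosome 3, 145313276), had 141 and 108 reads in the controls against 18 and 21 in the cKO (log2 difference -2.73 ± 0.33, limma adjusted p = 3.86e-12). *Acvr2a*, a receptor of activins (chromosome 2, 48669629), had 49 and 42 reads in the controls against 16 and 3 in the cKO (log2 difference -2.69 ± 0.39, limma adjusted p = 5.05e-09). *Mxd1*, a partner of MAX (chromosome 6, 86619153), had 53 and 30 reads in the controls against 6 and 7 in the cKO (log2 difference -2.63 ± 0.41, limma adjusted p = 5.71e-08). There the input held 40 reads, and the controls lay at log2 0.27 and -0.64 over it. *Phf2*, a histone demethylase of the PHD finger group (chromosome 13, 48966254), had 48 and 66 reads in the controls against 13 and 7 in the cKO (log2 difference -2.59 ± 0.36, limma adjusted p = 7.14e-10). The groups did not overlap at any of these, which the choice by 2-fold falls in both pairs nearly ensures.

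*Rfng*, a fringe glycosyltransferase that modifies Notch receptors (chromosome 11, 120645521), had 46 and 22 reads in the controls against 17 and 1 in the cKO (log2 difference -2.75 ± 0.46, limma adjusted p = 9.9e-07). Its tiles were the same as those of the neighbouring *Gps1*. *Pusl1*, which shares its tiles with *Acap3* (chromosome 4, 155265890), had 67 and 59 reads in the controls against 15 and 7 in the cKO (log2 difference -2.65 ± 0.35, limma adjusted p = 1.59e-10). At *Rfng* the value of cKO 2 rests on 1 read, and the controls differ more than at the others, at log2 0.74 and -0.41 over input. After GC correction *Rfng* had -1.60 (limma adjusted p = 0.252) and *Phf2* -1.55 (0.108), so both calls ended, and without a variance trend that of *Rfng* ended too (0.076).

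Of the 10 named promoters with the largest rises, 1 had a CpG-rich start. *Gm9726* (6 and 1 reads in the controls against 13 and 14 in the cKO, log2 difference 2.07, limma adjusted p = 0.0412) had a larger value but a mean under the 10 reads set for naming. *Ccnb3*, a cyclin of meiotic cells (chromosome X, 6618745), had 27 and 17 reads in the controls against 69 and 78 in the cKO (log2 difference 1.66 ± 0.33, limma adjusted p = 5.53e-05). *Fkbp6*, a germ cell protein needed for male meiosis (chromosome 5, 135825895), had 48 and 48 reads in the controls against 147 and 164 in the cKO (log2 difference 1.59 ± 0.35, limma adjusted p = 0.00028), and was the single CpG-rich promoter among those that rose. *Klb*, a co-receptor of fibroblast growth factors (chromosome 5, 65739625), had 58 and 69 reads in the controls against 189 and 188 in the cKO (log2 difference 1.47 ± 0.36, limma adjusted p = 0.00163). Both cKO libraries exceeded both controls at each, which the choice nearly ensures. The day 4 cKO library differed from its control by log2 -0.13, 0.14 and 0.47 in the same order.

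*Vmn1r168*, a vomeronasal receptor gene with near copies (chromosome 7, 24325739), had 3 and 6 reads in the controls against 15 and 25 in the cKO (log2 difference 1.96 ± 0.55, limma adjusted p = 0.00711), and its value is uncertain for that reason. *1110017F19Rik* (chromosome 11, 115773331) had 4 and 5 reads in the controls against 15 and 24 in the cKO (log2 difference 1.87 ± 0.55, limma adjusted p = 0.0101). The other 5, *Gm10068*, *Gm11487*, *1700014N06Rik*, *Gm10482* and *Gm9799*, had log2 differences between 1.36 and 1.48. Without control 1, 10 of the 20 named promoters no longer passed, among them *Rfng*, *Mxd1*, *Fkbp6* and *Klb*. Without control 2 it was 6, among them *Ccnb3*, *Fkbp6* and *Klb*, without cKO 2 it was 5, among them *Rfng* and *Vmn1r168*, and without cKO 1 it was *Gm10068*. Counted over 5 kb either side of the start, *Fkbp6* had 0.70 (limma adjusted p = 0.074) and *1110017F19Rik* 0.72 (0.0663). *Vmn1r168* and *1110017F19Rik* had at most 6 reads in a control, and in the cKO their levels over input were log2 -0.26 and 0.08 for the former and -1.32 and -1.04 for the latter.

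**Figure D4:**
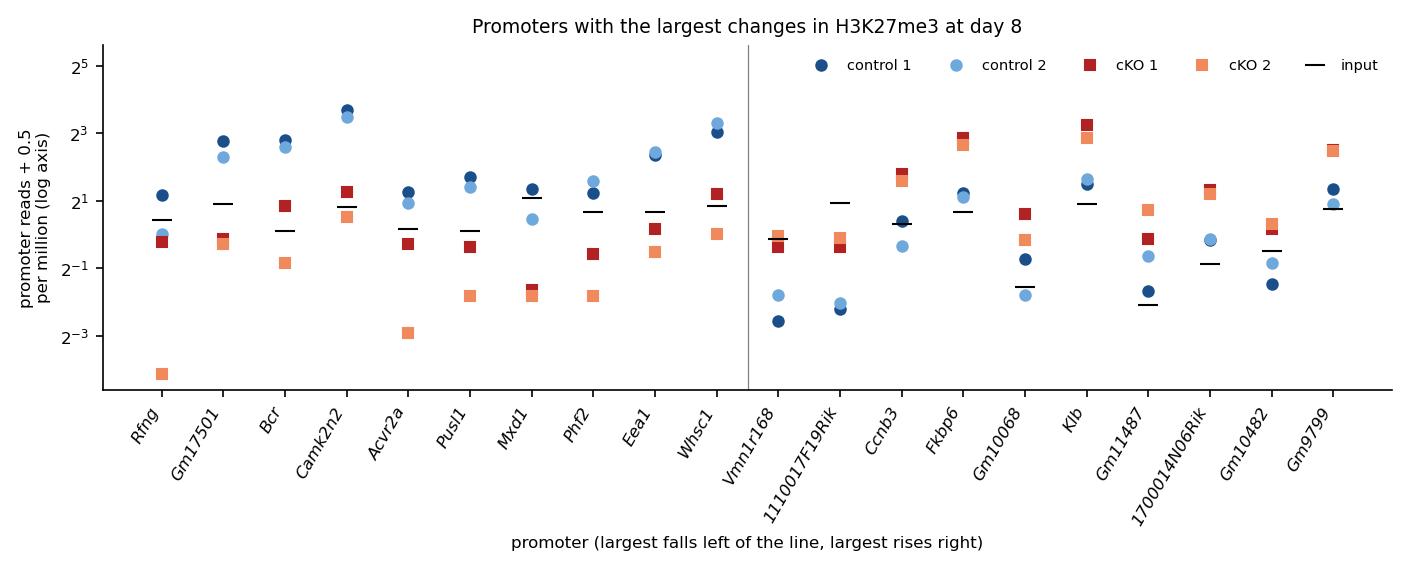
Promoter reads plus 0.5, scaled to library size (y axis, log) in each day 8 library, with circles for controls, squares for cKO and dashes for the input, for the 10 promoters with the largest falls (left of the line) and the 10 with the largest rises (right). The cKO squares lie below both controls on the left and above them on the right, which the choice nearly ensures. At *Bcr* the reads per library are 145, 135, 36 and 14.

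The 200 bases with most CpG sites in the promoter tiles are printed for the leading 3 falls and 3 rises, since CpG content set the promoter classes apart. They come from the NCBIM37 reference and read 5′ to 3′ on the strand of the gene, with each CpG in capitals.
Rfng, chr11:120645668-120645867, minus strand: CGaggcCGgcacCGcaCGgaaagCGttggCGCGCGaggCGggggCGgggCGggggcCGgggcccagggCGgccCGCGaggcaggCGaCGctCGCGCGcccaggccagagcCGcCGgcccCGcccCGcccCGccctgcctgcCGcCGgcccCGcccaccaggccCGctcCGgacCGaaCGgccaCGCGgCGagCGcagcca
Gm17501, chr3:145312758-145312957, plus strand: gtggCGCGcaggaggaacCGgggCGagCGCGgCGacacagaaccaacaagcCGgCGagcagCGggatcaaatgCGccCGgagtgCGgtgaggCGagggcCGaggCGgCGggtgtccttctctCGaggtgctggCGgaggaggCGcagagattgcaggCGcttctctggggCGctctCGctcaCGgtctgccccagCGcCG
Bcr, chr10:74524001-74524200, plus strand: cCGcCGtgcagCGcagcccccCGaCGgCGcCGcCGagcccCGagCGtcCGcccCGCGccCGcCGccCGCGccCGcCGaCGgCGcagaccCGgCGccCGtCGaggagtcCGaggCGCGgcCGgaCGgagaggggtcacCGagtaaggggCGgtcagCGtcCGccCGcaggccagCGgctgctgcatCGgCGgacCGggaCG
Vmn1r168, chr7:24326727-24326926, plus strand: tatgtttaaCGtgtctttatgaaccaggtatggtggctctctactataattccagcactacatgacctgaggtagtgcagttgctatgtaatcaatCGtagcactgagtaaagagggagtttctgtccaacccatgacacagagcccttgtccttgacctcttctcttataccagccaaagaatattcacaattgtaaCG
1110017F19Rik, chr11:115772888-115773087, plus strand: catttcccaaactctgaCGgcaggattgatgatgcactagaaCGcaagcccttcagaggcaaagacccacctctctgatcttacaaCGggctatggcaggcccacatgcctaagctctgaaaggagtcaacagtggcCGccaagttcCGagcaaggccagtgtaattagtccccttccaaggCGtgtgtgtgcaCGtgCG
Ccnb3, chrX:6618638-6618837, minus strand: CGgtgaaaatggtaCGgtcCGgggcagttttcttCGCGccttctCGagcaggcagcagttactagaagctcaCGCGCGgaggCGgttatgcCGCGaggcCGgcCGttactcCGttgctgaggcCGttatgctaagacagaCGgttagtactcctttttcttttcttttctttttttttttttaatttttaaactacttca

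The stretches of *Rfng*, *Gm17501* and *Bcr* hold 36, 26 and 40 CpG sites, and 8%, 33.1% and 2.82% of all tested promoters have a stretch with at least as many. Those of *Vmn1r168*, *1110017F19Rik* and *Ccnb3* hold 3, 8 and 17, reached by 98.5%, 77.4% and 56.4%. Over all promoters that were lower the densest stretch held a median of 30 CpG sites, over those that were higher 11 and over all tested 20.

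Developmental regulators held the highest levels of the mark and had lower values in the cKO, though few passed the test. The *Hox* genes encode homeodomain factors that set position along the body axis. Their 40 promoters had a median level of log2 4.91 and 4.42 in the controls and 4.16 and 3.32 in the cKO over input, so the control and cKO medians did not overlap. In 38 of 40 both cKO libraries lay below both controls, against 45.2% of all promoters. Among promoters over 8-fold at day 4 the share was 90.5% of CpG-rich and 74.9% of intermediate ones. The median change of the *Hox* promoters was -0.71 in pair 1 and -1.06 in pair 2, against -0.86 and -1.12 for those CpG-rich ones. Without replicate number as a block, 0 of 40 passed limma or limma-voom and 1 had an unadjusted limma p under 0.05. Over the gene bodies, 38 of 40 had an unadjusted p under 0.05 and 0 passed after adjustment. Neighbouring *Hox* genes lie close together, so these 40 are not independent observations. The most marked, *Hoxb6*, had 1057 and 775 reads in the controls against 638 and 477 in the cKO (log2 difference -0.81 ± 0.73, limma adjusted p = 0.486). *Hoxb8* had 1284 and 1004 reads in the controls against 701 and 550 in the cKO and *Hoxd9* 1083 and 916 reads in the controls against 594 and 410 in the cKO. The standard error of about 0.7 at these promoters is near the size of the difference.

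Other homeobox and *Pax* genes gave 4 of 98 lower, against 12.1% of all promoters, with a median change of -0.80 in pair 1 and -1.13 in pair 2. *Pou4f2*, *Nkx6-2* and *Meis1* were among those that passed. *Pou4f2*, a factor of retinal ganglion cells, had 510 and 438 reads in the controls against 197 and 154 in the cKO (log2 difference -1.53 ± 0.48, limma adjusted p = 0.0187). *Tlx2*, the most marked of the list, had 1094 and 980 reads in the controls against 584 and 377 in the cKO (log2 difference -1.24 ± 0.72, limma adjusted p = 0.258), without overlap of the groups. Of *Sox*, *Fox*, *Gata*, T-box and bHLH genes 7 of 77 were lower (9.09%) and 1 was higher (1.3%, against 0.595% of all promoters). The largest difference was at *Sox21*, a factor of neural progenitors, with 637 and 585 reads in the controls against 187 and 114 in the cKO (log2 difference -2.16 ± 0.49, limma adjusted p = 0.000494), and the rise was at *Neurod6*, a neuronal bHLH factor, with 37 and 50 reads in the controls against 91 and 101 in the cKO (log2 difference 1.05 ± 0.34, limma adjusted p = 0.0209).

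Among *Wnt*, *Fgf* and other morphogen genes 11 of 82 were lower (13.4%) and 0 higher, a share near the 12.1% of all promoters. The ligand gene *Fgf20* had 43 and 38 reads in the controls against 12 and 7 in the cKO (log2 difference -2.17 ± 0.38, limma adjusted p = 2.31e-06) and the BMP antagonist *Nog* 479 and 371 reads in the controls against 141 and 127 in the cKO (log2 difference -1.75 ± 0.45, limma adjusted p = 0.00274). *Wnt7b*, with the highest level at day 4, had 941 and 673 reads in the controls against 449 and 261 in the cKO (log2 difference -1.31 ± 0.63, limma adjusted p = 0.154). Ion channel and neurotransmitter receptor genes gave 15 of 196 lower (7.65%), among them the glutamate receptor gene *Grik3* (307 and 346 reads in the controls against 71 and 107 in the cKO).

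**Figure D5:**
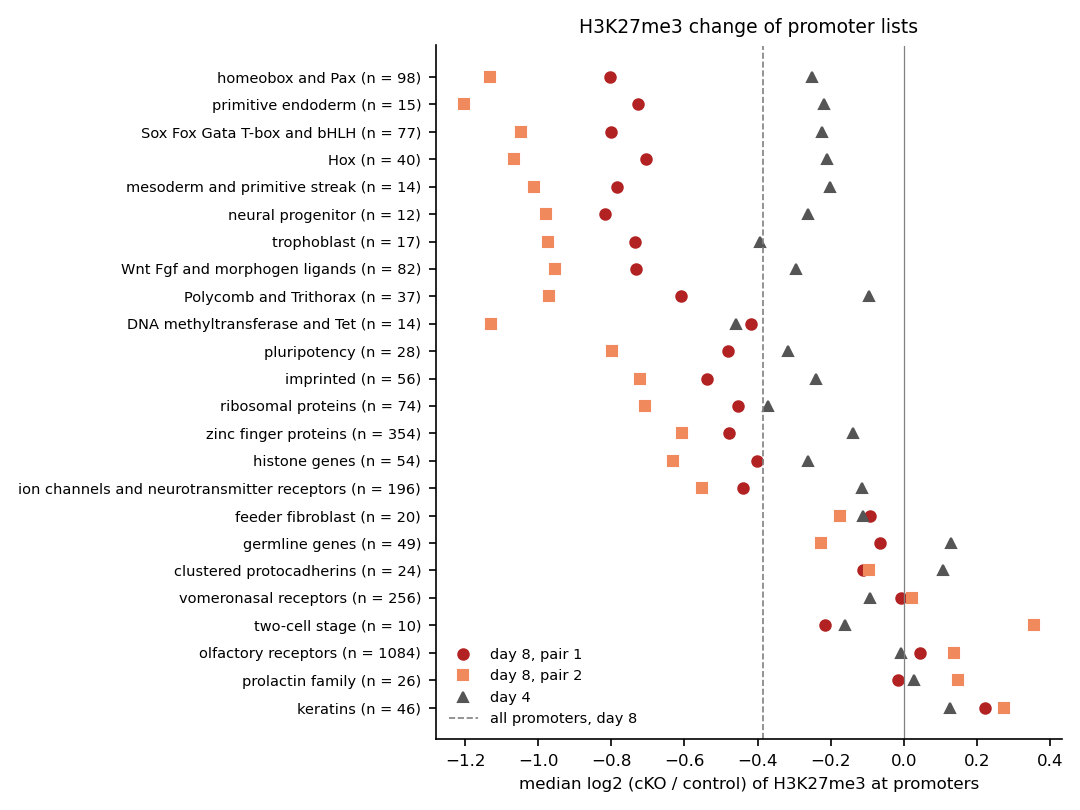
Median log2 ratio of cKO to control H3K27me3 reads at promoters (x axis) for 24 gene lists (rows, with the number of promoters tested), with circles and squares for the day 8 pairs, triangles for day 4 and a dashed line at the median of all promoters (-0.39). Both pairs are below 0 in 19 lists and both are above 0 for olfactory receptors and keratins.

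Lists of lineage markers were included to show other cells a culture could hold, and their shares of lower promoters lay between 0% and 17.6%, around the 12.1% of all promoters. Trophoblast genes gave 3 of 17 lower, with *Tead4*, a factor of the trophectoderm, at 113 and 229 reads in the controls against 44 and 70 in the cKO (log2 difference -1.62 ± 0.35, limma adjusted p = 0.000249). Primitive endoderm genes gave 2 of 15 lower, *Col4a1* (300 and 266 reads in the controls against 88 and 52 in the cKO, log2 difference -2.15 ± 0.38, limma adjusted p = 3.72e-06) and *Lama1*, both basement membrane genes, and 2 higher (13.3%, against 0.595% of all promoters). The higher ones were the endocytic receptor gene *Cubn* (19 and 19 reads in the controls against 52 and 50 in the cKO, log2 difference 1.31 ± 0.34, limma adjusted p = 0.00293) and *Afp* (31 and 25 reads in the controls against 51 and 62 in the cKO, log2 difference 0.91 ± 0.33, limma adjusted p = 0.0495), alpha-fetoprotein. Neural progenitor genes gave 1 of 12, mesoderm and primitive streak genes 0 of 14 (1 at an unadjusted p under 0.05, 0 with limma-voom) and feeder fibroblast genes 2 of 20 lower. The median changes of the feeder fibroblast list were -0.09 in pair 1 and -0.17 in pair 2, and those of the others lay between -0.73 and -1.20. The median levels over input of these 5 lists in the day 4 control ran from 1.72 to 4.05.

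Pluripotency genes gave 5 of 28 lower (17.9%) and 0 higher, against 12.1% and 0.595% of all promoters. *Klf4* had 100 and 221 reads in the controls against 39 and 44 in the cKO (log2 difference -1.93 ± 0.34, limma adjusted p = 3.87e-06) and *Klf2* 120 and 107 reads in the controls against 50 and 37 in the cKO (log2 difference -1.48 ± 0.34, limma adjusted p = 0.00055), both factors of the naive state, and *Tbx3*, *Jam2* and *Nr0b1* also passed. At *Klf4* the controls differed more than 2-fold from each other. *Pou5f1*, *Nanog* and *Zfp42* had at most 21 reads in any day 8 library and log2 differences of 0.20, -0.08 and 0.17.

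Of Polycomb and Trithorax genes 8 of 37 were lower (21.6%), against 12.1% of all promoters and 22% of CpG-rich ones, and 31 of the 38 annotated have a CpG-rich start. They were *Bmi1*, *Pcgf1*, *Yaf2*, *Bap1*, *Aebp2*, *Pcgf2*, *Ring1* and *Bcor*, and 0 were higher. *Bmi1*, a subunit of Polycomb repressive complex 1, had 519 and 492 reads in the controls against 244 and 156 in the cKO (log2 difference -1.47 ± 0.50, limma adjusted p = 0.0328). *Cbx8*, which binds H3K27me3 within that complex and had the highest level of the list, had 979 and 752 reads in the controls against 513 and 348 in the cKO (log2 difference -1.12 ± 0.67, limma adjusted p = 0.271). *Ezh2*, *Eed* and *Suz12* had at most 20 reads per library. DNA methyltransferase and Tet genes gave 5 of 14 lower (35.7%, against 12.1% of all promoters). The de novo methyltransferase genes *Dnmt3a* (147 and 167 reads in the controls against 78 and 76 in the cKO, log2 difference -1.12 ± 0.36, limma adjusted p = 0.0242) and *Dnmt3b* (82 and 46 reads in the controls against 29 and 23 in the cKO, log2 difference -1.33 ± 0.33, limma adjusted p = 0.00188) were among them. So were *Tdg*, a glycosylase of active demethylation, *Tet2* and *Tet3*.

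Of imprinted genes, expressed from 1 parental copy, 8 of 56 were lower (14.3%), near the 12.1% of all promoters. *Airn*, a noncoding RNA that silences *Igf2r* in cis, had 136 and 101 reads in the controls against 30 and 20 in the cKO (log2 difference -2.33 ± 0.33, limma adjusted p = 3e-09), and *Igf2r* itself 419 and 329 reads in the controls against 176 and 96 in the cKO (log2 difference -1.61 ± 0.44, limma adjusted p = 0.00526). *Gnas*, *Peg12*, *Ampd3*, *Nnat*, *Cd81* and *Herc3* also passed. *Cdkn1c*, the most marked, had 884 and 570 reads in the controls against 416 and 335 in the cKO (log2 difference -1.02 ± 0.62, limma adjusted p = 0.278).

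Germline genes, many of them silenced by methylation of a CpG-rich promoter, gave 1 of 49 lower (2.04%, against 12.1% of all promoters), *Tex19.1* (101 and 63 reads in the controls against 56 and 27 in the cKO, log2 difference -1.12 ± 0.33, limma adjusted p = 0.0114), and 0 higher (against 0.595%). Their 19 CpG-rich promoters had a median level of 1.84 over input at day 4 and a median change of -0.09 in pair 1 and -0.30 in pair 2. All CpG-rich promoters of the 2 to 4-fold class, to which that level belongs, had -0.82 in pair 1 and -0.93 in pair 2. This difference was not tested. *Tdrd6* (474 and 283 reads in the controls against 324 and 249 in the cKO), *Ddx4* (349 and 224 reads in the controls against 231 and 198 in the cKO) and *Tdrd1* (366 and 254 reads in the controls against 273 and 223 in the cKO), all of the germ cell granule or piRNA pathway, had the highest levels. The meiotic chromosome gene *Sycp3* had 65 and 49 reads in the controls against 121 and 92 in the cKO (log2 difference 0.80 ± 0.34, limma adjusted p = 0.104) and was named for its values, as was *Asz1* with 51 and 62 reads in the controls against 90 and 117 in the cKO (log2 difference 0.77 ± 0.34, limma adjusted p = 0.123).

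Genes of the 2-cell stage gave 0 of 10 lower and 1 higher (0% and 10%, against 12.1% and 0.595% of all promoters). The higher one was *Sp110* (29 and 37 reads in the controls against 57 and 91 in the cKO, log2 difference 1.03 ± 0.33, limma adjusted p = 0.0218), which shares its tiles with *Sp140*. Of the 16 annotated, 6 had too few reads to be tested. Ribosomal protein genes, active in every cell, gave 2 of 74 lower (2.7%, against 12.1% of all promoters and 22% of CpG-rich ones). These were *Rpl31* (27 and 30 reads in the controls against 8 and 8 in the cKO) and *Rpl30* (13 and 20 reads in the controls against 6 and 4 in the cKO). Of the 75 annotated, 66 have a CpG-rich start. The median change of the list was -0.45 in pair 1 and -0.71 in pair 2 at a median level of -1.25 over input at day 4. Histone genes gave 9 of 54 lower (16.7%) with -0.40 in pair 1 and -0.63 in pair 2, many of them in near-identical clusters whose values are uncertain. Zinc finger genes gave 49 of 354 lower (13.8%) and 0 higher, against 12.1% and 0.595% of all promoters.

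Large gene families with at most 1 CpG-rich start stood near 0 or above. Of all promoters 12.1% were called lower and 0.595% higher, and of CpG-poor ones 1.33% and 0.677%. Olfactory receptor genes gave 5 of 1084 lower (0.461%) and 10 higher (0.923%), shares near those of CpG-poor promoters. Their median change was 0.04 in pair 1 and 0.14 in pair 2, and none had a CpG-rich start. Keratin genes, structural proteins of epithelia, gave 0 of 46 lower and 2 higher, *Krt27* (33 and 58 reads in the controls against 91 and 120 in the cKO, log2 difference 1.15 ± 0.34, limma adjusted p = 0.0103) and *Krt28* (57 and 49 reads in the controls against 105 and 113 in the cKO, log2 difference 0.94 ± 0.34, limma adjusted p = 0.0478), with 0.22 in pair 1 and 0.27 in pair 2. In 26 of 46 keratin promoters both cKO libraries lay above both controls, against 12.2% of all promoters and 1724 of 7089 CpG-poor ones. Neighbouring keratin genes lie close together, so these 46 are not independent observations. No keratin promoter had a CpG-rich start, and their median level was 1.02 over input at day 4. Of CpG-poor promoters 2 to 4-fold over input at day 4, 332 of 1092 had both cKO libraries above both controls. Vomeronasal receptors gave 2 of 256 lower (0.781%) and 3 higher (1.17%). Clustered protocadherins and the prolactin family gave 0 calls in 24 and 26 promoters in limma and limma-voom (0 and 2 at an unadjusted p under 0.05), with median changes of -0.10 and 0.13. After centring on the window medians the mean of the pair medians was 0.01 for olfactory receptors and 0.17 for keratins. It turned sign for vomeronasal receptors (0.01 to -0.07), the prolactin family (0.07 to -0.01) and the 2-cell list (0.07 to -0.01).

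Day 4 values come from libraries outside the day 8 groups. Over CpG-rich promoters, a class set by the reference sequence, the median change was -0.24 at day 4, against -0.68 and -0.86 in the day 8 pairs. The day 4 cKO library was below its control in 85.6% of the windows called lower at day 8, against 50.2% of all windows, with a median of -0.23. It was above its control in 77% of the windows called higher, with a median of 0.18. For promoters the shares were 85.1% and 74.3%, and 62.2% of all promoters were lower at day 4. These windows and promoters were chosen by their day 8 change, so the sizes of their changes cannot be compared between the days. In a limma fit over the 6 H3K27me3 libraries, 1 of 250852 windows (0.000399%) and 0 of 22872 promoters (0%) had a genotype difference at day 8 that differed from that at day 4. At an unadjusted p under 0.05 there were 8471 windows and 1228 promoters. Day 4 had 1 library per genotype, assumed to vary like those of day 8.

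The other marks were read over the same windows at day 8. H3K9me2 in the windows called lower for H3K27me3 had a median change of 0.13 in pair 1 and 0.62 in pair 2, and H3K9me3 -0.12 and -0.01. Over all windows H3K9me2 had 0.00 and -0.01, and in the windows called higher 0.19 and 0.10. A CpG-rich start was present in 49.9% of the lower windows. Over all CpG-rich promoters H3K9me2 had 0.23 and 1.24, and over the promoters called lower 0.23 and 1.23. The pair 1 value is what equal read counts give, since control 1 held 22103689 H3K9me2 reads in tiles and cKO 1 18893002. It therefore shows no difference in read counts at the median promoter. In pair 2 the promoters called lower did not stand apart from CpG-rich promoters in general. Whether few reads per promoter set these values was not tested. In the windows called higher, H3K9me3 had 0.18 and 0.27. The H3K9me3 library of cKO 1 was shallow, with 5668983 reads in tiles against 18761912 in control 1. The pair 1 values of H3K9me3 are therefore less certain.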

How the data were processed

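H3K27me3 ChIP-seq reads were trimmed with Trim Galore and aligned to NCBIM37 with Bowtie2 (2.2.9) by the authors, who discarded alignments with mapping quality under 20. The deposited table gives, per 2 kb tile and library, the log2 ratio of observed to expected reads, without input subtraction, and the methods speak of 1 kb tiles. Whole reads were recovered for 100% of the values, a tile without reads being stored as 0.9 of a read. Reads were summed over 10 kb windows, promoters and gene bodies (GENCODE vM1) and compared as log2 of reads plus 0.5 over the reads of the library in tiles with limma (3.58.1) and Benjamini-Hochberg adjustment at 0.05. Features needed a mean of 10 reads (windows, bodies) or 5 reads (promoters, tiles). The script was tested on simulated data.

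Members and lists were chosen with earlier results of these data known. Named were the promoters with the 10 largest falls and rises and the windows with the 8 largest, among those past the threshold and changed at least 2-fold in both pairs, with a mean of at least 10 reads, outside the 1% of windows with most input reads, and at least 50 kb (promoters) or 100 kb (windows) apart, the genes of each list with the 3 highest levels at day 4, and *Dnmt1*. Further list genes were named because they passed the test or after their values were seen, and some genes that passed are not reported here. Library depth was 20173468 to 26181275 reads, with a median of 12 to 17 reads per tile. Replicate numbers were not taken to pair libraries. Alternatives covered the variance trend, weights, GC correction, centring, filters, the added reads, window size and each library left out. Other marks served for comparison only.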

Additional observations from a re-analysis of the deposited data

Results flagged for a closer look

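The window at chr6:3020001-3030000, 292257 bases from the nearest gene *Samd9l*, was the single window whose genotype difference at day 8 differed from that at day 4 in limma. It had 4 and 23 reads in the day 8 controls, 8 and 25 in the day 8 cKO, 19 in the day 4 control and 0 in the day 4 cKO, with 18 in the input. The difference between the days was 5.46 on the log2 scale (SE 0.84, limma adjusted p = 0.00546), and it rests on the 0 reads of 1 library. At day 8 alone the difference was 0.42 ± 0.46 (limma adjusted p = 0.737), and the replicates of each group were further apart than the groups. Groups of 2 libraries are too small for a test of outlying samples.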

How the results depend on the processing

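Of the 3451 windows called, the count fell to 72 without a variance trend, 1666 after centring and 1989 from means of the deposited values. The 2909 promoters became 680 without a trend and 1894 from 1 kb upstream alone. The 0 gene bodies became 196 after GC correction and 145 after centring, and the 4453 tiles became 0 without a trend and 2696 after centring. The share of lower calls was 67.3% of windows, 89.7% after centring and 76.8% after GC correction, 95.3% of promoters (77% and 86.4%) and 70.4% of tiles (83.5% after centring). Leaving out each library gave 336 to 7148 windows, 178 to 4040 promoters, 110 to 2900 bodies and 1552 to 7601 tiles.

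The labels number the replicates, but do not state that libraries of the same number belong together. With the replicate number as a block the fit called 23851 windows, 7849 promoters, 7216 bodies and 25831 tiles, and with GC correction added to the block 23638, 5503, 6590 and 23647. Deviations of same-numbered libraries correlated across 25254 windows of 100 kb, which are not independent (Pearson 0.73, Spearman 0.72). Of the block-fitted windows 45.9% were lower.

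The 831 windows at least 2-fold lower in both pairs became 6700 at 1.5-fold, 3 at 4-fold, 489 with crossed replicate numbers, 14278 as tiles and 3 as 100 kb windows. The 107 higher ones became 3175, 1 and, as tiles and 100 kb windows, 9657 and 0, with 51 after centring and 246 without a filter. The cause of these differences was not tested.

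Of the named features, 7 of 20 promoters and 4 of 16 windows kept direction and call under every alternative. The promoter of *Gm10068* turned to -0.0011 with 5 kb either side of the start. Leaving out a library ended 22 of 80 calls at named promoters and 15 of 64 at named windows. The mean of the pair medians over CpG-rich promoters was -0.77 and lay between -0.77 and -0.88 under the other settings. The median limma difference of these promoters was -0.76, but after GC correction it was -0.50. The level class over 8-fold stayed between -0.81 and -0.89. The number of lists lower in both pairs was 19, 18 with gene bodies and 20 after centring. With gene bodies single lists moved, ion channels from -0.50 to -0.04, primitive endoderm from -0.96 to -0.22, Wnt and Fgf from -0.84 to -0.37, imprinted genes from -0.63 to -0.25, and feeder fibroblast genes turned from -0.13 to 0.14. Counting promoters that share tiles once, chosen after seeing the data, gave 2617 of 21205.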
